A study of Arabidopsis thaliana with 12 samples.

Results

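Cysteine-rich receptor-like kinases (CRKs) are plant cell-surface receptors. The 37 CRK genes described here are rows of a table of 37884 Arabidopsis thaliana genes, taken by gene identifier from the CRK family, and they include the 19 members of the large tandem array that runs from AT4G23130 to AT4G23320. The libraries are of root messenger RNA from seedlings 4 days old, 3 for each of 4 genotypes. ERF115OX carried ERF115 and ERF114OX carried ERF114, closely related AP2/ERF transcription factors, each behind the 35S promoter, which is active in most plant cells. ERF115-SRDX carried ERF115 joined to the SRDX motif, a short peptide that turns a transcription factor into a repressor, also behind 35S, and WT was the accession Col-0. The series asked which root genes lie downstream of ERF115 and ERF114. Neither the number of independent lines nor separate cultures behind the 3 libraries of a genotype are given in the labels, so a p-value covers the spread among these libraries only, which may be technical.

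A CRK has an extracellular part with DUF26 domains, which hold conserved cysteines, a single stretch through the membrane and a protein kinase domain inside the cell. The family is among the largest groups of receptor-like kinases in plants, and many of its genes respond at the transcript level to pathogens, salicylic acid and reactive oxygen species. Several members take part in immune signalling, production of reactive oxygen by the NADPH oxidase RBOHD, cell death, and responses to abscisic acid and salt. Most of that knowledge comes from leaves and whole seedlings.

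Values are read counts that the authors divided by 1 size factor per library (normalized counts), with 47242114 to 48343410 reads per library. At that depth a floor of 3 reads corresponds to 2.90 to 3.18 normalized counts, which covers counting error only. Changes are differences of log2(normalized count + 1) ± SE from limma, fitted on the 23375 genes whose mean over the 12 libraries reached 10 normalized counts. Genes were called where the Benjamini-Hochberg adjusted p, taken over all of them, was under 0.05. The added 1 and the averaging of logs make the changes of genes with few or uneven reads differ from the ratio of their means, in either direction. ERF115 had 34638, 38360 and 36973 normalized counts in the ERF115OX libraries, 84451, 88807 and 83518 in those of ERF115-SRDX, and 4.86, 23.4 and 561 in WT, where WT 3 stood apart. ERF114 had 44417, 47807 and 47330 in ERF114OX and 35.0, 10.7 and 12.9 in WT, so these libraries go with their titles although their genotype label also carries the name ERF115OX.

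The libraries had root transcripts throughout, and the share of photosynthetic transcripts differed between them. The 8 Casparian strip genes, which mark the root endodermis, were above 0 in every library, with a mean log2 value between 11.14 and 11.65. The 21 photosynthetic genes, which mark green tissue, were above 0 in every library too, and took 0.718 to 0.989% of all normalized counts in ERF115OX, 0.310 to 1.012% in ERF114OX, 0.0235 to 0.330% in ERF115-SRDX and 1.22 to 2.49% in WT. In limma 21 of 21 fell in ERF115-SRDX, with a median log2 change of -5.25, and none was called in ERF115OX or ERF114OX. ERF115-SRDX 2 and ERF114OX 1 stood apart within their groups, with mean log2 values of 12.63 against 8.05 and 8.38, and of 12.28 against 14.12 and 14.05. In RNA from roots, fewer cells of a type and less RNA per cell cannot be told apart.

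Of the 37 CRK genes, 25 passed the filter and were tested, and 12 did not. CRK33 and CRK38 had no read in any library. Of the 25, CRK5, CRK8, CRK24, CRK31 and CRK32 had a mean under 10 over the other 3 groups and passed only through their level in ERF115-SRDX, so counts over the tested genes lean toward that line. For that reason each count over the 25 in the fit described above is followed by the count over the other 20. The 20 stand beside the 23138 of all tested genes that reach the same mean outside ERF115-SRDX. Counts under other settings are not split in this way.

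Per kb of coding sequence, CRK19, CRK3, CRK29, CRK25 and CRK2 were the highest CRK transcripts in WT roots. CRK19, whose overproduction is known to cause cell death, was highest at 2292 ± 154 normalized counts per kb (SD, n = 3), with CRK3 next at 1572 ± 82.3. CRK29 had 1197 ± 33.9 per kb, CRK25 had 918 ± 109 and CRK2, a kinase that acts in salt tolerance and in the activation of RBOHD, had 669 ± 25.3. None of these neighbours in the WT order overlapped in its libraries. CRK11 (460.1 ± 74.3) and CRK28 (299 ± 33.2) followed, and all other CRK genes lay lower. CRK40 and CRK10 came next and overlapped, at 187 ± 67.9 and 179 ± 22.7 per kb.

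The first 5 genes stood in the same order in ERF115OX and in ERF114OX as in WT, although CRK25 and CRK2 overlapped in ERF115OX. The order was another in ERF115-SRDX. There CRK11 was highest at 5686 ± 536 normalized counts per kb and CRK25 was next at 3473 ± 230, ahead of CRK3 (2051 ± 102), CRK19 (1495 ± 55.1) and CRK2 (971 ± 92.5). CRK36 and CRK31 overlapped at 839 ± 35.5 and 824 ± 53.2 per kb, above CRK10 (583 ± 67.5), while in WT they had 14.6 ± 1.53 and 7.82 ± 4.37. Coding lengths come from TAIR10.1, and the reads may have been counted on another annotation.

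**Figure D1:**
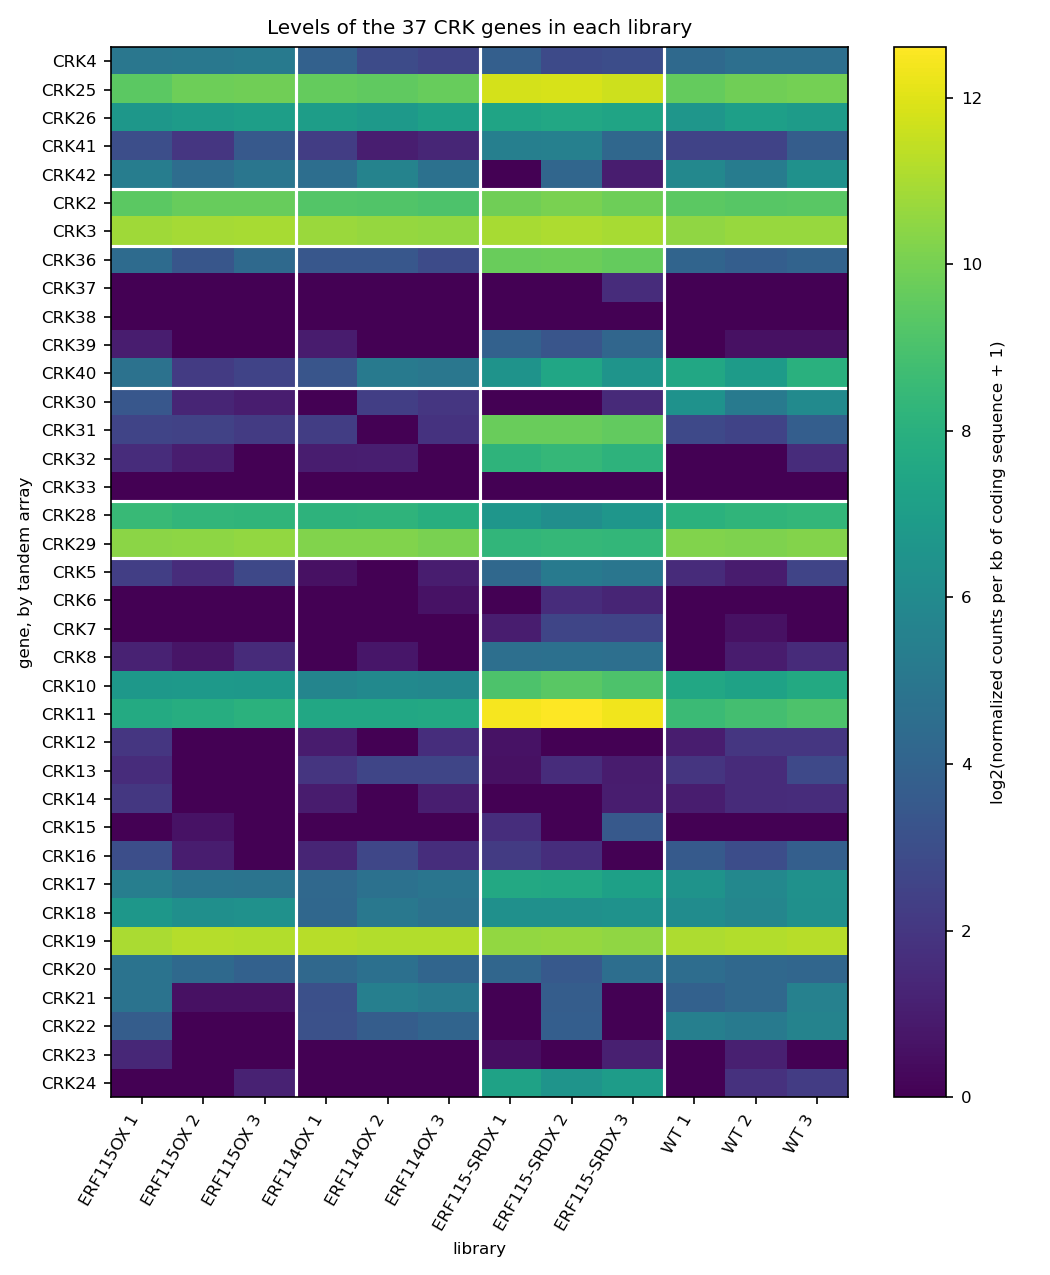
Levels of the 37 CRK genes (rows, grouped by tandem array) in the 12 libraries (columns, 3 per group), as log2 of normalized counts per kb of coding sequence plus 1, on a colour scale from dark (low) to bright (high). CRK19, CRK3, CRK29, CRK25 and CRK2 are bright in every group, and CRK11, CRK31, CRK32 and CRK36 are brighter in the 3 ERF115-SRDX libraries than elsewhere.

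CRK transcripts summed over the 37 genes stood highest in ERF115-SRDX. The sum was 34939, 37653 and 32848 normalized counts in ERF115-SRDX, against 15674, 16309 and 17828 in WT, a ratio of means of 2.12. It was 15516, 16670 and 17064 in ERF115OX and 14830, 14377 and 14040 in ERF114OX, with ratios to WT of 0.989 and 0.868. The ERF115-SRDX libraries lay above all others. CRK11 alone made up 32.4 ± 0.827% of the sum in ERF115-SRDX and 5.53 ± 0.547% in WT, and CRK25 made up 20.6 ± 0.648% and 11.5 ± 0.832%. CRK19 held 8.28 ± 0.261% of the sum in ERF115-SRDX and 26.8 ± 0.678% in WT. Without CRK11 the ratio of ERF115-SRDX to WT was 1.51, and without CRK11 and CRK25 the sums were 16244, 17557 and 15765 in ERF115-SRDX, against 13243, 13399.6 and 14667 in WT. Without CRK3 and CRK19 as well, the ratio was 1.54. Between ERF115-SRDX and WT the sum was higher where the photosynthetic share was lower. Within that line, ERF115-SRDX 2 had both the highest share (0.330%, against 0.0235 and 0.0255%) and the highest sum. ERF115OX and ERF114OX had lower shares than WT too, and their mean sums were not above that of WT. The part of that share in the sum was not tested.

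**Figure D2:**
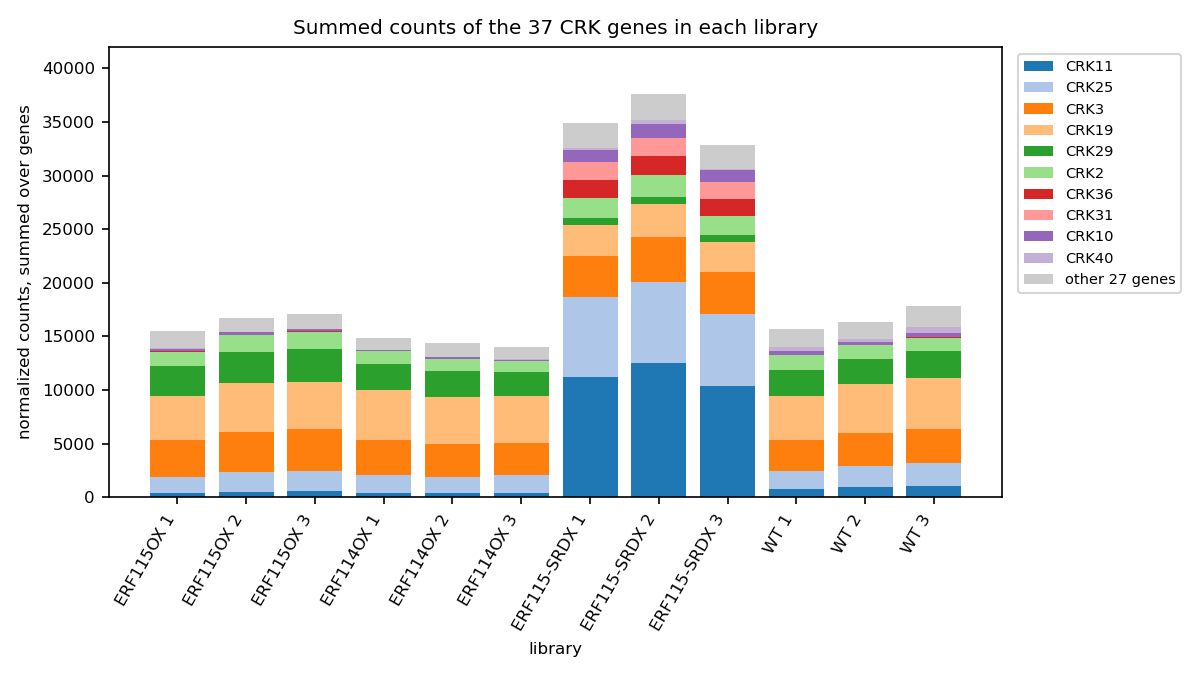
Summed normalized counts of the 37 CRK genes in each library (bars, 3 per group), split into the genes with the largest counts and the rest. The ERF115-SRDX bars reach 32848 to 37653, and those of the other groups stay between 14040 and 17828. The CRK11 and CRK25 sections are the tallest in ERF115-SRDX.

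In ERF115-SRDX against WT, 14 of the 25 tested CRK genes rose and 8 fell, while 23.4% of all tested genes were called higher and 26.6% lower, 50.1% in all. Over the 20 genes the counts were 9 and 8, against 22.9% higher and 26.9% lower of all genes under the same filter, and the median log2 change was 0.03, against -0.01. The mean photosynthetic log2 level per library ran from 8.05 to 12.63 in ERF115-SRDX and from 14.35 to 15.38 in WT. A fit with that level as a covariate therefore cannot fully separate the level from the line. In that fit 12 of the 25 rose and 5 fell. The shares of all tested genes were then 13.6% and 12.6%. The 12 include CRK5, CRK8, CRK24, CRK31 and CRK32, which passed the filter only through ERF115-SRDX. CRK18, CRK20 and CRK40 were not called. CRK11, CRK36, CRK25, CRK10, CRK32 and CRK31 had the smallest adjusted p among those that rose, and CRK29, CRK28, CRK19, CRK30, CRK42 and CRK22 among those that fell.

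CRK11, known for its response to oxidative stress and salicylic acid, had 11248, 12533 and 10401 normalized counts in ERF115-SRDX, against 774, 921 and 1072 in WT. It rose by 3.63 ± 0.11 (limma adjusted p = 1.6e-10), and the lowest ERF115-SRDX library lay far above the highest of WT. Its neighbour CRK10, of which a gain-of-function allele dwarfs the plant, had 1080.3, 1328 and 1109 in ERF115-SRDX, against 371, 309 and 398 in WT. CRK10 rose by 1.70 ± 0.12 (limma adjusted p = 1.1e-07), again with no overlap. The annotated models of the pair lie on opposite strands and overlap by 32 bases.

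CRK36, which acts in responses to abscisic acid and osmotic stress, had 1669, 1723 and 1584 normalized counts in ERF115-SRDX, against 31.1, 25.4 and 29.9 in WT. It rose by 5.80 ± 0.27 (limma adjusted p = 3.5e-09). CRK36 was thus a minor CRK transcript in WT and one of the more abundant in ERF115-SRDX. ARCK1 (also CRK45) is a receptor-like cytosolic kinase known to act with CRK36 and is not among the 37 genes. It had 319, 301 and 209 normalized counts in ERF115-SRDX, against 0, 0 and 5.98 in WT. ARCK1 rose by 7.16 ± 0.70 (limma adjusted p = 3.1e-06). Its WT mean of 1.99 lies under the floor, and it passed the filter only through its level in ERF115-SRDX.

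CRK31 and CRK32 are neighbours in the array that runs from AT4G11460 to AT4G11490. CRK31 had 1738, 1708 and 1539 normalized counts in ERF115-SRDX, against 11.7, 9.76 and 25.9 in WT, and rose by 6.75 ± 0.64 (limma adjusted p = 2.1e-06). CRK32 had 585, 660.0 and 567 in ERF115-SRDX, against 0, 0 and 3.98 in WT, and rose by 8.47 ± 0.75 (limma adjusted p = 1.2e-06). The WT mean of CRK32, 1.33 normalized counts, lies under the floor, so the size of its change depends on the added 1. CRK30, in the same array, went the other way. It had 0, 0 and 3.95 normalized counts in ERF115-SRDX, against 182, 73.2 and 134 in WT, and fell by 6.17 ± 0.97 on the log2 scale (limma adjusted p = 0.00016).

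CRK25 lies outside the arrays and was already abundant in WT. It had 7447, 7563 and 6682 normalized counts in ERF115-SRDX, against 1657, 1988 and 2089.5 in WT, and rose by 1.92 ± 0.11 (limma adjusted p = 3e-08). Its model overlaps that of ATK5, a kinesin gene on the opposite strand, by 492 bases, and ATK5 had 2833, 2766 and 2727 normalized counts in ERF115-SRDX and 1380, 1634 and 1371 in WT. The libraries mark strand, but the strand setting used in counting is not given in these sources, so shared reads cannot be told apart.

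CRK29 and CRK28, neighbours whose proteins are known to associate and of which CRK28 promotes immune responses, were the clearest losses. CRK29 had 649, 684 and 661 normalized counts in ERF115-SRDX, against 2423, 2383 and 2518 in WT, and fell by 1.88 ± 0.06 on the log2 scale (limma adjusted p = 1.5e-10). CRK28 had 203, 151 and 204 in ERF115-SRDX, against 539, 625 and 674 in WT, and fell by 1.72 ± 0.13 (limma adjusted p = 3.4e-07). In both genes every ERF115-SRDX library lay below every WT library. Their models share 470 bases on the same strand, so their counts are not fully separate. The model of CRK29 also shares 305 bases on the same strand with AT4G03065, an RNA gene. AT4G03065 had 58.4, 70.0 and 81.1 normalized counts in ERF115-SRDX, against 201, 188 and 179 in WT.

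CRK19 fell less, with 2905, 3015 and 2801 normalized counts in ERF115-SRDX, against 4134, 4504 and 4729 in WT, a change of -0.61 ± 0.06 (limma adjusted p = 3.7e-06). It was the fourth most abundant CRK per kb in that line and the first in WT. CRK42 and CRK22 were low and uneven. CRK42 had 0, 33.4 and 1.98 in ERF115-SRDX, against 116, 75.1 and 162 in WT, a change of -4.60 ± 0.93 (limma adjusted p = 0.0012). CRK22 had 0, 25.1 and 0 in ERF115-SRDX, against 83.6, 70.2 and 98.6 in WT, a change of -4.83 ± 1.31 (limma adjusted p = 0.008). In both, ERF115-SRDX 2 held nearly all of that line's reads, and it is the library with the higher photosynthetic level. With that level as a covariate their changes were 0.13 (limma adjusted p = 0.92) for CRK42 and 0.51 (limma adjusted p = 0.86) for CRK22. Both calls and directions thus depend on the setting, and that fit cannot fully separate the level from the line. The call of CRK22 was also lost in DESeq2 (adjusted p = 0.19). It was lost without ERF115-SRDX 1 and 3 too (limma adjusted p = 0.4), a setting chosen after seeing the data, in which the spread for ERF115-SRDX 2 is taken from the other groups.

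The other 8 genes that rose spanned small changes in abundant genes and large ones in scarce genes. CRK2 and CRK3, which are neighbours, rose by 0.53 and 0.38. CRK3 had 3816, 4200.0 and 3929.7 normalized counts in ERF115-SRDX, against 2873, 3102 and 3181 in WT. CRK26, outside the arrays, had 326, 378 and 326 in ERF115-SRDX, against 194, 279 and 239 in WT, and rose by 0.54. CRK17 rose by 1.22 and CRK41 by 2.205. CRK5, overproduction of which causes cell death, had 36.3, 68.9 and 59.3 normalized counts in ERF115-SRDX, against 3.89, 1.95 and 9.96 in WT, and rose by 3.32 ± 0.60 (limma adjusted p = 0.00051). CRK8 rose by 4.62 and had 72.6, 75.2 and 72.2 in ERF115-SRDX, against 0, 2.93 and 5.98 in WT. CRK24 rose by 5.87 and had 239.8, 144 and 196 in ERF115-SRDX, against 0, 3.90 and 5.98 in WT. In both, the WT mean (2.97 and 3.29 normalized counts) is at the floor. The other 2 that fell were CRK4 (-1.35 ± 0.37, limma adjusted p = 0.008) and CRK21 (-4.01 ± 1.42, limma adjusted p = 0.032). CRK21 had 0, 25.1 and 0 in ERF115-SRDX, against 29.2, 37.1 and 93.6 in WT, and its call was lost under 11 of 25 other settings. The calls of CRK26 and CRK41 were lost with the photosynthetic level as a covariate (limma adjusted p = 0.098 and 0.095).

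**Figure D3:**
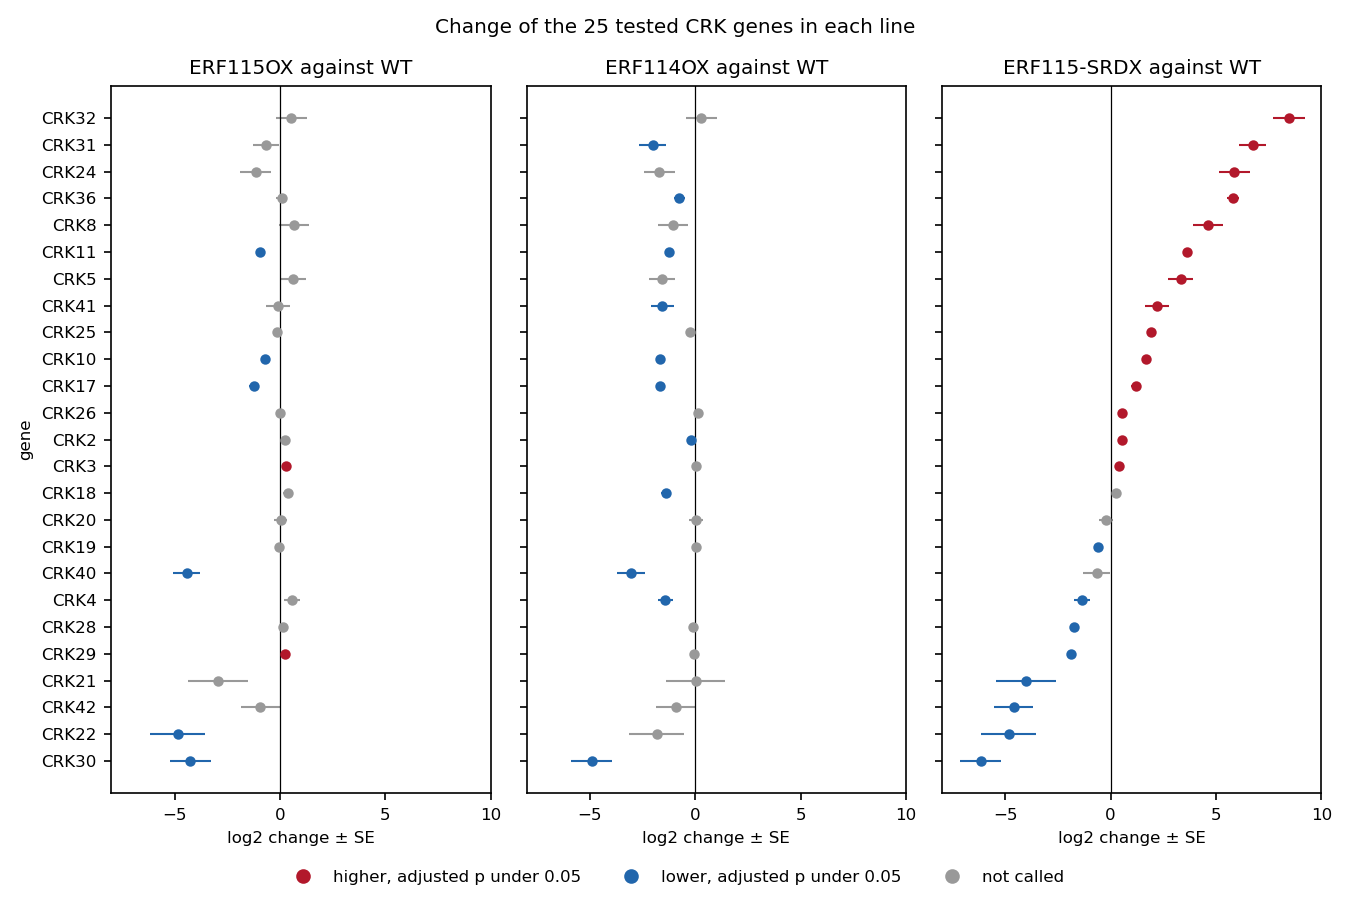
Changes of the 25 tested CRK genes (rows) in each of the lines against WT, as log2 change (points) with its SE (lines), ordered by the change in ERF115-SRDX. Red marks genes called higher, blue genes called lower, and grey the rest. Red points number 2, 0 and 14, blue points 6, 11 and 8. The 3 panels share the WT libraries.

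In ERF115OX against WT, 2 of the 25 tested CRK genes rose and 6 fell, while 16.4% of all tested genes were called higher and 15.7% lower, 32.1% in all. All 8 were among the 20. The median log2 change over the 20 genes was -0.07, against -0.001 over all genes under the same filter. CRK3 had 3538, 3772 and 3910.5 normalized counts in ERF115OX, against 2873, 3102 and 3181 in WT, and rose by 0.29 ± 0.06 (limma adjusted p = 0.0036). CRK29 had 2781, 2864 and 3084 in ERF115OX, against 2423, 2383 and 2518 in WT, and rose by 0.25 ± 0.06 (limma adjusted p = 0.0064). Both are small gains in abundant genes whose groups did not overlap.

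CRK11 and CRK10 were lower in ERF115OX. CRK11 had 417, 463 and 525 normalized counts there, against 774, 921 and 1072 in WT, and fell by 0.97 ± 0.11 on the log2 scale (limma adjusted p = 0.00011). CRK10 had 212, 219.6 and 214 in ERF115OX, against 371, 309 and 398 in WT, and fell by 0.73 ± 0.12 (limma adjusted p = 0.00077). CRK17, further along the same array, had 122, 85.4 and 83.7 in ERF115OX, against 268, 174 and 244 in WT, and fell by 1.23 ± 0.22 (limma adjusted p = 0.0018). In all 3 genes the ERF115OX libraries lay below those of WT. The model of CRK17 shares 1190 bases on the same strand with that of CRK16, which had 14.1, 2.03 and 0 normalized counts in ERF115OX and 21.4, 13.7 and 25.9 in WT.

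CRK40, CRK30 and CRK22 fell further, from lower levels. CRK40 had 50.4, 7.12 and 9.30 normalized counts in ERF115OX, against 370.4, 233 and 500.0 in WT, and fell by 4.44 ± 0.66 on the log2 scale (limma adjusted p = 0.00049). CRK30 had 20.1, 3.05 and 2.07 in ERF115OX, against 182, 73.2 and 134 in WT, and fell by 4.26 ± 0.97 (limma adjusted p = 0.0061). CRK22 had 24.2, 0 and 0 in ERF115OX, against 83.6, 70.2 and 98.6 in WT, a change of -4.85 ± 1.31 (limma adjusted p = 0.015). ERF115OX 1 was the highest library of that line in these genes and in CRK21, which had 56.4, 1.02 and 1.03 normalized counts in ERF115OX. It also had the highest photosynthetic level of the line, with a mean log2 value of 14.00 against 13.49 and 13.59. The call of CRK22 was lost in DESeq2 (adjusted p = 0.22), without ERF115OX 2 (limma adjusted p = 0.063) and without ERF115OX 3 (limma adjusted p = 0.061). Without ERF115OX 1, CRK21 was called lower as well (limma adjusted p = 0.019).

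In ERF114OX against WT, 11 of the 25 tested CRK genes fell and none rose, while 19.6% of all tested genes were called lower and 17.5% higher, 37.1% in all. At an unadjusted p under 0.05 in limma the counts were 13 lower and 0 higher. The share of all tested genes at that threshold was not computed. In edgeR and DESeq2 0 were called higher as well, beside 14.2% and 17.5% of all tested genes. Over the 20 genes 10 fell, against 19.6% of all genes under the same filter, with a median log2 change of -0.83, against -0.01. The count lower was 7 without WT 3 and 7 under quantile normalization, beside 14.4% and 15.9% of all tested genes. CRK36, CRK41, CRK2 and CRK31 are the less certain of the 11, since their calls were lost under 16, 15, 13 and 3 other settings.

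CRK10, CRK11 and CRK17 were again lower. CRK10 had 104, 124 and 111 normalized counts in ERF114OX, against 371, 309 and 398 in WT, and fell by 1.66 ± 0.12 on the log2 scale (limma adjusted p = 2.7e-06). CRK11 had 381, 379 and 386 in ERF114OX, against 774, 921 and 1072 in WT, and fell by 1.26 ± 0.11 (limma adjusted p = 1.7e-05). CRK17 had 54.2, 75.2 and 86.1 in ERF114OX, against 268, 174 and 244 in WT, and fell by 1.66 ± 0.22 (limma adjusted p = 0.00022). No ERF114OX library reached the lowest WT library in these genes.

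CRK18, next to CRK17 in the array, fell in ERF114OX and was not called against WT in ERF115OX (adjusted p = 0.2 in limma) or in ERF115-SRDX (adjusted p = 0.31). It had 34.9, 64.6 and 51.9 normalized counts in ERF114OX, against 135, 108 and 155 in WT, a change of -1.41 ± 0.21 (limma adjusted p = 0.00044). CRK30 had 0, 8.47 and 6.22 in ERF114OX, against 182, 73.2 and 134 in WT, a change of -4.90 ± 0.97 (limma adjusted p = 0.0023). CRK40 had 17.4, 66.7 and 60.2 in ERF114OX, against 370.4, 233 and 500.0 in WT, a change of -3.05 ± 0.66 (limma adjusted p = 0.0036). CRK30 and CRK40 were the CRK genes with the largest falls in ERF114OX, and their 3 libraries lay below every WT library. ERF114OX 1, the library with the lower photosynthetic level, was the lowest of its group in both. CRK4, overproduction of which causes cell death, had 29.0, 12.7 and 10.4 normalized counts in ERF114OX, against 37.9, 47.8 and 46.8 in WT, and fell by 1.43 ± 0.37 (limma adjusted p = 0.0097).

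CRK30 was the CRK gene called lower than WT in each of the 3 lines, against the same WT libraries. CRK4 was called lower in ERF114OX and ERF115-SRDX, CRK22 in ERF115OX and ERF115-SRDX, and CRK10, CRK11, CRK17 and CRK40 in ERF115OX and ERF114OX. CRK3 was called higher in ERF115OX and ERF115-SRDX. CRK20, known for a role in infection by Pseudomonas bacteria, was the 1 tested gene called in none of the 5 comparisons. It had 53.4, 37.6 and 27.9 normalized counts in ERF115OX, 35.8, 48.7 and 32.2 in ERF114OX, 34.3, 20.9 and 45.5 in ERF115-SRDX, and 42.8, 36.1 and 33.9 in WT.

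Some tested genes were called in opposite directions in different lines. The share of all tested genes called in this way was not computed, so their number is not read as a trait of the family. CRK10, CRK11 and CRK17 were lower in ERF115OX and ERF114OX and higher in ERF115-SRDX. CRK29 was the reverse, higher in ERF115OX and lower in ERF115-SRDX. CRK2, CRK31, CRK36 and CRK41 were lower in ERF114OX and higher in ERF115-SRDX, with the uncertain ERF114OX calls given above. Of these, CRK31 passed the filter only through its level in ERF115-SRDX. CRK2 had 1159, 1146 and 1054 normalized counts in ERF114OX, 1811, 2101 and 1771 in ERF115-SRDX, and 1355, 1256 and 1304 in WT. CRK31 had 7.75, 0 and 5.19 in ERF114OX, CRK36 had 19.4, 19.1 and 12.4, and CRK41 had 7.75, 2.12 and 3.11. CRK41 had 85.7, 87.7 and 35.6 in ERF115-SRDX and 9.72, 9.76 and 23.9 in WT, which are low counts with a wide spread. CRK17 had 594, 572 and 422 in ERF115-SRDX, above each of its WT libraries. These comparisons share the WT libraries, so a WT library that is high or low moves them together.

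**Figure D4:**
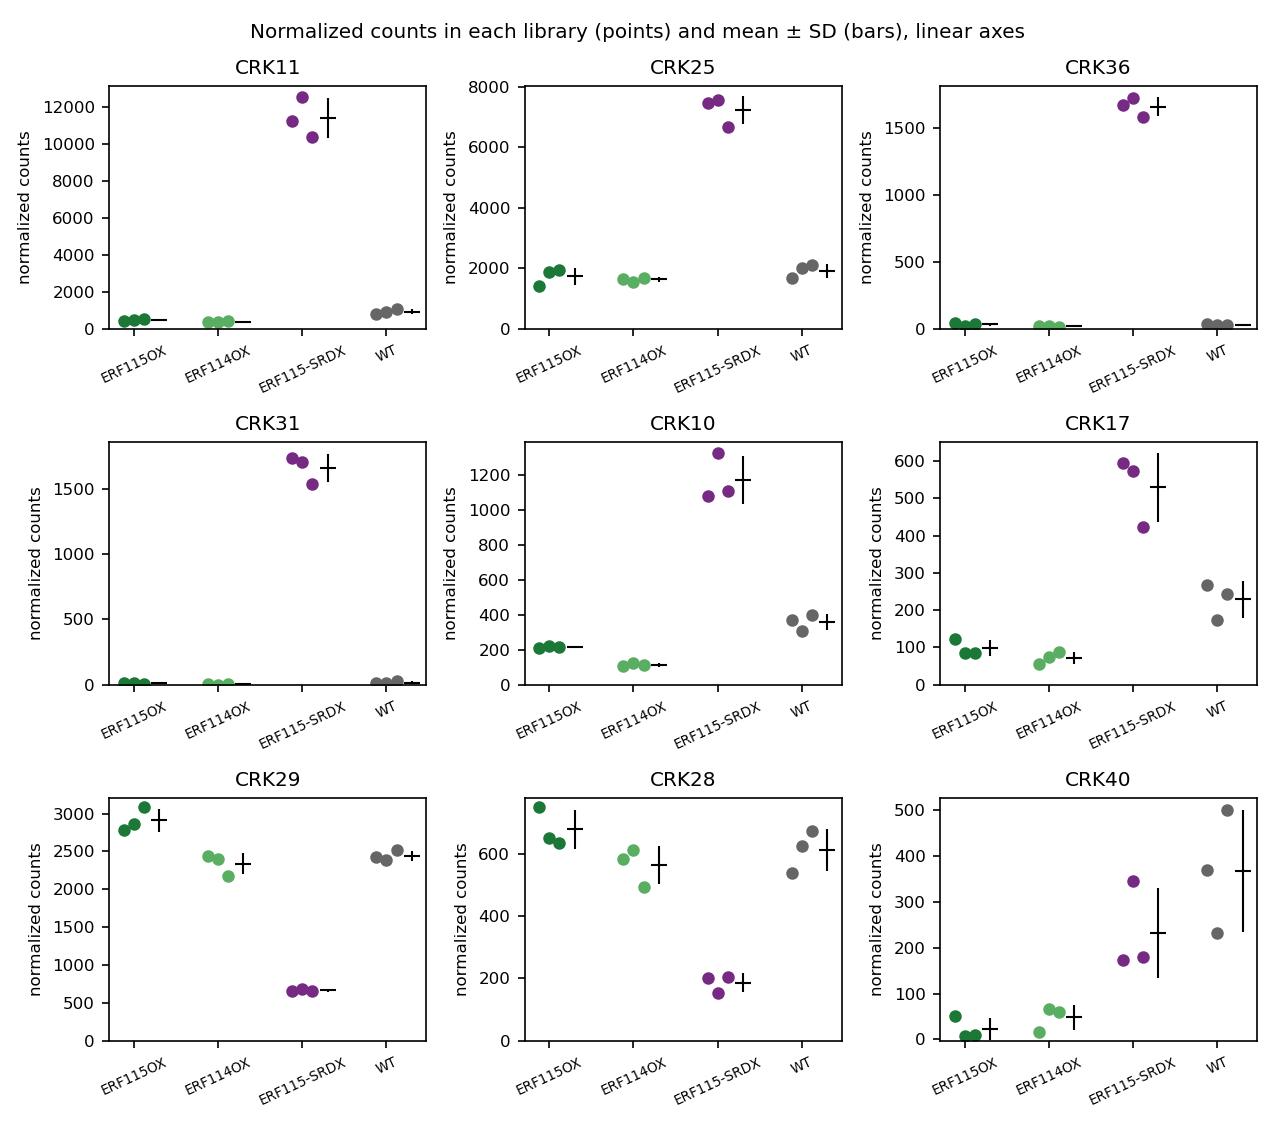
Normalized counts of single CRK genes in each library (points), with the mean and SD of each group (bars, n = 3), on linear axes, 1 panel per gene. CRK10, CRK11 and CRK17 lie lowest in ERF115OX and ERF114OX and highest in ERF115-SRDX, and CRK29 is lowest in ERF115-SRDX.

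ERF115OX against ERF115-SRDX sets the overexpressor of ERF115 against its SRDX fusion. The difference itself does not use WT, although the WT libraries enter the filter and the spread in the fit. In that comparison 5 of the 25 tested CRK genes were higher and 14 lower, while 29.6% of all tested genes were called higher and 26.4% lower, 56% in all. Over the 20 genes 5 were higher and 9 lower, against 29.9% and 25.8% of all genes under the same filter, and the median difference was -0.05, against 0.03. CRK29 had 2781, 2864 and 3084 normalized counts in ERF115OX, against 649, 684 and 661 in ERF115-SRDX, and was higher by 2.13 ± 0.06 (limma adjusted p = 3.6e-11). CRK28 had 749, 652 and 633 in ERF115OX, against 203, 151 and 204 in ERF115-SRDX, and was higher by 1.87 ± 0.13 (limma adjusted p = 1.2e-07). CRK19 had 4045, 4574 and 4396 in ERF115OX, against 2905, 3015 and 2801 in ERF115-SRDX, and was higher by 0.58 ± 0.06 (limma adjusted p = 5.2e-06). In these 3 abundant genes the groups did not overlap.

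CRK11, CRK36 and CRK10 had the smallest adjusted p among the 14 that were lower in ERF115OX than in ERF115-SRDX. CRK11 differed by -4.60 ± 0.11 (limma adjusted p = 1.6e-11) and CRK10 by -2.44 ± 0.12 (limma adjusted p = 3.1e-09). CRK36 had 40.3, 18.3 and 37.2 normalized counts in ERF115OX, against 1669, 1723 and 1584 in ERF115-SRDX, a difference of -5.73 ± 0.27 (limma adjusted p = 2.7e-09). CRK40 was called here though not in ERF115-SRDX against WT. It had 50.4, 7.12 and 9.30 in ERF115OX, against 172, 346 and 179.9 in ERF115-SRDX, a difference of -3.77 ± 0.66 (limma adjusted p = 0.00033). The photosynthetic level also differed between these lines, without overlap, so a fit with it as a covariate cannot fully separate the level from the line. With that level as a covariate 4 of the 25 CRK genes were higher and 16 lower. Of all tested genes 17% were then called higher and 18.4% lower. The 16 include CRK5, CRK8, CRK24, CRK31 and CRK32, which passed the filter only through ERF115-SRDX.

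ERF115OX against ERF114OX compares the overexpressors of the pair of related factors. Here 6 of the 25 tested CRK genes were higher in ERF115OX and none lower, while 4.77% of all tested genes were called higher and 2.13% lower, 6.9% in all. All 6 were among the 20, whose median difference was 0.28, against 0.004 over all genes under the same filter. At an unadjusted p under 0.05 in limma 11 were higher and 1 lower, and the share of all tested genes there was not computed. In edgeR and DESeq2 0 were called lower, beside 1.67% and 3.5% of all tested genes. Without ERF115OX 1, the library with the highest CRK21, CRK22 and CRK40 of its group, these 3 genes were called lower (limma adjusted p = 0.045, 0.029 and 0.026).

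CRK18 had 201, 150.5 and 163 normalized counts in ERF115OX, against 34.9, 64.6 and 51.9 in ERF114OX, and was higher by 1.78 ± 0.21 (limma adjusted p = 0.00049). CRK10 had 212, 219.6 and 214 in ERF115OX, against 104, 124 and 111 in ERF114OX, and was higher by 0.93 ± 0.12 (limma adjusted p = 0.00068). CRK2 had 1369, 1587 and 1609 in ERF115OX, against 1159, 1146 and 1054 in ERF114OX, and was higher by 0.44 ± 0.08 (limma adjusted p = 0.0072). The lines did not overlap in these genes. The other 3 called were CRK4 (2.01), CRK29 (0.32) and CRK3 (0.27), of which CRK3 lost its call under 6 other settings.

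The large array from AT4G23130 to AT4G23320 holds 19 of the 37 genes, 11 of them tested. In ERF115-SRDX against WT 6 of the 11 rose and 3 fell, but CRK5, CRK8 and CRK24 passed the filter only through that line, and 3 of the other 8 rose and 3 fell, beside 22.9% and 26.9% of all genes under the same filter. In ERF115OX 4 of the 8 fell and none rose, beside 15.7% and 16.6%, and in ERF114OX 4 of the 8 fell and none rose, beside 19.6% and 17.7%. In ERF115-SRDX, CRK5, CRK8, CRK10, CRK11, CRK17 and CRK24 were the genes that rose and CRK19, CRK21 and CRK22 those that fell. Those that fell lie between CRK17 and CRK24 in gene order, where CRK18 and CRK20 were not called and CRK23 was not tested. The calls of CRK21 and CRK22 depended on the setting, as given above. CRK16, on the other side of CRK17, was called lower when no filter was applied (limma adjusted p = 0.045). EP1 (CRK9), a gene of the array that is not among the 37, had 299, 303 and 263 normalized counts in ERF115-SRDX, against 29.2, 13.7 and 42.8 in WT, and rose by 3.43 ± 0.49 (limma adjusted p = 7.5e-05). CRK genes are close copies of one another, and how reads that fit several of them were counted is not given in these sources.

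**Figure D5:**
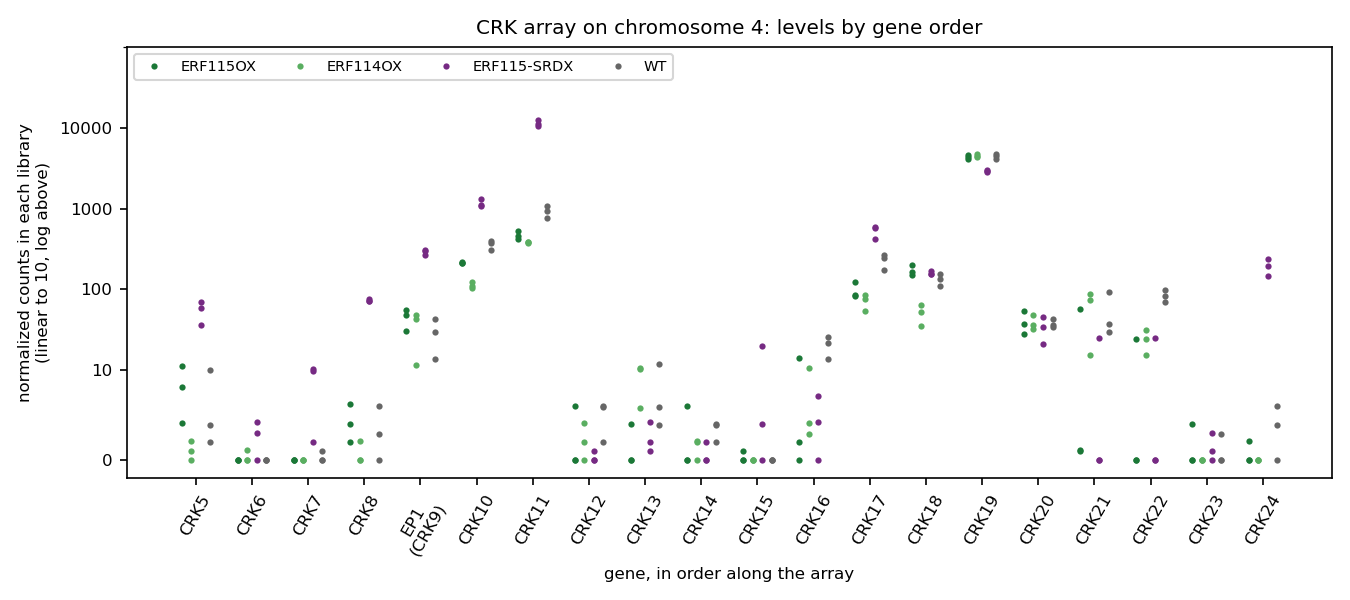
Normalized counts of the 19 CRK genes of the large array and of EP1 in each library (points, 3 per group), in gene order. The axis is linear to 10 and logarithmic above, and groups are to be compared within a gene. CRK8, CRK10, CRK11 and CRK24 are highest in ERF115-SRDX, CRK19 is lowest in ERF115-SRDX, and CRK12 and CRK14 reach at most 6.04 in any library.

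The smaller arrays differed from one another. CRK28 and CRK29, the pair from AT4G21400 to AT4G21410, both fell in ERF115-SRDX. CRK2 and CRK3, from AT1G70520 to AT1G70530, both rose. In the array from AT4G11460 to AT4G11490, CRK31 and CRK32 rose and CRK30 fell, and CRK33 had no read. CRK31 and CRK32 passed the filter only through ERF115-SRDX. In the array of 5 genes from AT4G04490 to AT4G04570, CRK36 rose and CRK40 was not called, and CRK37, CRK38 and CRK39 were under the filter. The 5 genes outside arrays are CRK4, CRK25, CRK26, CRK41 and CRK42.

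The 12 genes under the filter had few or no reads in most libraries of these roots. They were CRK33 and CRK38, with none, and CRK6, CRK7, CRK12, CRK13, CRK14, CRK15, CRK16, CRK23, CRK37 and CRK39, with 4 to 106 reads over the 12 libraries. A library without a read allows a level of up to 2.90 to 3.18 normalized counts. CRK39 had 28.2, 17.8 and 33.6 normalized counts in ERF115-SRDX, against 0, 0.976 and 0.996 in WT. CRK7, which protects against extracellular reactive oxygen species together with CRK6, had 2.02, 10.4 and 9.89 in ERF115-SRDX, against 0, 0.976 and 0 in WT. Both were called higher in ERF115-SRDX when no filter was applied (limma adjusted p = 7.2e-05 and 0.0011), as were CRK6 (0.049) and CRK15 (0.042). CRK16 was then called lower in ERF115-SRDX (limma adjusted p = 0.045), with 7.05, 4.18 and 0 normalized counts there, against 21.4, 13.7 and 25.9 in WT. CRK13 was called lower in ERF115OX (limma adjusted p = 0.028). CRK13, overproduction of which raises salicylic acid, had 4.03, 0 and 0 in ERF115OX, 5.81, 10.6 and 10.4 in ERF114OX, 1.008, 4.18 and 1.98 in ERF115-SRDX, and 5.83, 3.90 and 11.95 in WT.

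Among genes that act with CRKs or downstream of them in immune and oxidative signalling, 19 of 20 were tested. In ERF115-SRDX against WT 11 rose and 3 fell, with a median change of 0.75, beside 23.4% and 26.6% of all tested genes. In ERF115OX 7 rose and 3 fell, with a median of 0.07, beside 16.4% and 15.7%, and in ERF114OX 6 rose and 7 fell, with a median of -0.07, beside 17.5% and 19.6%. RBOHD, the oxidase that makes extracellular reactive oxygen species and a substrate of CRK2, had 5900.1, 6289 and 5401 normalized counts in ERF115-SRDX, against 2531, 2708 and 2679 in WT, and rose by 1.15 ± 0.07 (limma adjusted p = 2.4e-08). The immune regulators PAD4 and EDS1 rose by 1.66 and 1.38 in that line, and ICS1, the main enzyme of salicylic acid synthesis in immunity, by 1.52. The receptor of bacterial elongation factor, EFR, rose by 1.86. CALS1, a callose synthase, fell by 1.74, and the transcription factors WRKY60 and WRKY18 fell by 1.80 and 0.81. PR1, a usual marker of salicylic acid responses, had no read in any library.

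FLS2, the flagellin receptor with which CRK28 associates, fell in both overexpressors. It had 35.3, 14.2 and 12.4 normalized counts in ERF115OX, 5.81, 6.35 and 16.6 in ERF114OX, 375, 458 and 419 in ERF115-SRDX, and 284, 74.1 and 241 in WT. The changes were -3.15 ± 0.52 in ERF115OX (limma adjusted p = 0.00096) and -4.17 ± 0.52 in ERF114OX (limma adjusted p = 0.00013), and in ERF115-SRDX the change was 1.27 ± 0.52 (limma adjusted p = 0.061). In ERF115OX the 7 that rose were WRKY60 (0.83), BIK1 (0.49), PAD4 (0.42), RBOHD (0.34), PLDALPHA1 (0.30), BAK1 (0.15) and MPK6 (0.13). ICS1 fell by 0.50 in ERF115OX, and MPK3, an immune MAP kinase, fell by 0.26 there and by 0.55 in ERF114OX while it rose by 0.98 in ERF115-SRDX.

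Other proteins with DUF26 domains gave mixed counts. The 8 plasmodesmata-located proteins have DUF26 domains outside the cell and no kinase. In ERF115-SRDX 4 of them rose and 2 fell, beside 23.4% and 26.6% of all tested genes. In ERF115OX 2 rose and 2 fell, beside 16.4% and 15.7%. In ERF114OX 2 rose and 3 fell, beside 17.5% and 19.6%. These are counts of few genes. PDLP1 had 431, 428 and 407 normalized counts in ERF115-SRDX, against 79.7, 90.7 and 73.7 in WT, and rose by 2.37 ± 0.14 (limma adjusted p = 3.6e-08), PDLP5, which restricts traffic between cells, rose by 0.76, and PDLP8 fell by 1.73. None of the 28 cysteine-rich repeat secretory protein genes, which have the domains alone, passed the filter. Of the 7 other genes named CRK or annotated as such, 4 were tested. Of these ARCK1, EP1 and CRK34 rose and CRK27 fell in ERF115-SRDX, beside 23.4% and 26.6% of all tested genes. ARCK1 passed the filter only through its level in that line.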

How the data were processed

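Polyadenylated RNA from roots of 4-day-old seedlings was sequenced in 12 libraries, 3 for each of 4 genotypes, per the labels' protocols, with dUTP in the second strand. Samples were grouped by title. Each deposited value is the signal of a gene, its reads scaled by the library's size factor from DESeq2. The submitters' processing notes name Trimmomatic 0.39, HISAT2 2.2.1, SAMtools 1.11, DESeq2, and featureCounts from Subread 2.0.1. Build, annotation, strand setting and the handling of reads that map to several genes are not given in these sources, so no coordinates or sequences are printed, and a planned search of promoters for motifs was not run. Names, neighbours, overlaps and coding lengths came from TAIR10.1, in which all 37884 genes matched a locus tag.

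Reads were recovered as multiples of each library's smallest positive value. Of 316348 values above 0, 1 was not whole at a relative tolerance of 1e-06, and depth ran from 47242114 to 48343410 reads. In 4 libraries that smallest value is close to 1 (0.989 to 1.008), though the values there are not whole numbers. The count tests serve only as alternatives.

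The 23375 genes whose mean reached 10 normalized counts were fitted in limma 3.58.1 under R 4.3.3, on log2(value + 1), with a trend in the prior variance and all 4 groups in 1 fit. Calls are two-sided, at a Benjamini-Hochberg adjusted p under 0.05 over all genes, in 5 comparisons. The method was tested on simulated data. No list was given a test of its own. Counts and medians over the 20 CRK genes and 23138 genes that reach a mean of 10 outside ERF115-SRDX come from the same fit and were added after seeing the data. The CRK genes and the other lists were chosen with earlier results of these data known. Values in every library are given for the called CRK genes with the 6 smallest adjusted p in each direction against WT and the 3 smallest in each direct comparison, for the gene highest per kb, and for genes called in opposite directions against WT. Values of CRK4, CRK5, CRK7, CRK8, CRK13, CRK16, CRK20, CRK21, CRK24, CRK26 and CRK39 were added after they were seen, as were those of the genes named from the other lists. Results were recomputed with 2 other pseudocounts, without a filter and with one at a mean of 50, after TMM scaling and after quantile normalization, with edgeR 4.0.16 and DESeq2 1.42.0, with a call rule that adds an absolute log2 change of 1 or more, with fits restricted to the groups compared, with a replicate block, with the mean photosynthetic log2 level as a covariate, and without each library in turn. Python 3.11.15 with pandas 2.3.3 and matplotlib 3.10.9 made the tables and the figures.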

Additional observations from a re-analysis of the deposited data

How the results depend on the processing

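Under 26 other settings, 2 of them added after seeing the data, no CRK gene was called higher in ERF114OX against WT. Of all tested genes 1.2 to 22% were called higher there. The number called higher in ERF115-SRDX against WT lay between 10 and 18, beside 6.31 to 26.6% of all tested genes. It was 14 with each library left out, beside 20.3 to 24.1%. These counts include CRK5, CRK8, CRK24, CRK31 and CRK32 wherever they were tested. Those genes passed the filter only through their high level in that line, so their calls there were nearly fixed in advance. Requiring an absolute log2 change of at least 1 gave 0 higher in ERF115OX against WT and 2 higher in ERF115OX against ERF114OX. That rule called 1.37% and 1.07% of all tested genes higher. Quantile normalization gave 7 lower in ERF114OX against WT, beside 15.9% of all tested genes. A mean of at least 50 gave 4 lower in ERF115-SRDX against WT, where fewer genes were tested, beside 27.1% of all genes tested. The photosynthetic covariate gave 5 lower, beside 12.6%. In ERF115OX against ERF114OX, no filter gave 1 lower and that covariate 2, beside 1.39% and 2.68% of all tested genes. Counts higher and lower with 1 library left out are given beside the shares of all tested genes. In ERF115OX against WT they were 2 to 3 and 5 to 7, beside 12.1 to 16.8% and 11.4 to 16.5%. ERF114OX against WT gave 0 and 7 to 11 (7 without WT 3), beside 12.6 to 18.4% and 14.4 to 20.5%. ERF115-SRDX against WT gave 14 and 7 to 8, beside 20.3 to 24.1% and 24 to 27.1%. ERF115OX against ERF114OX gave 5 to 7 and 0 to 3 (3 without ERF115OX 1), beside 1.99 to 6.26% and 0.578 to 3.17%. ERF115OX against ERF115-SRDX gave 5 to 6 and 14, beside 25.9 to 30% and 23.9 to 26.6%. Of 35 changes of single CRK genes picked by the naming rule, 24 kept their call under every setting that gave a value, 8 lost it where an absolute log2 change of at least 1 was required, and 3 under other settings, which are those of CRK22 in ERF115OX and of CRK22 and CRK42 in ERF115-SRDX. The pair in ERF115-SRDX turned to 0.51 and 0.13 with the photosynthetic covariate, and the cause was not tested. Replicate numbers do not pair the libraries, since deviations of same-numbered libraries correlated at -0.28 to 0.12. With the number as a block the counts higher and lower were 2 and 6, 0 and 9, 14 and 7, 7 and 0, and 5 and 14, in the same order of comparisons. The shares of all tested genes were then 16% and 14.8%, 17.1% and 18.8%, 23.1% and 26.4%, 4.61% and 1.77%, and 29.2% and 26.2%. At this depth, changes of the 12 CRK genes under the filter rest on at most 106 reads each.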
